A study of Mus musculus with 6 samples.

Results

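The TGF-beta ligands, their receptors and the SMAD proteins next to them were followed through the cell types of the fetal mouse gonad. The genes are Tgfb1, Tgfb2, Tgfb3, Tgfbr1, Tgfbr2, Acvrl1, Eng, Smad3 and Smad7. They were taken by symbol and make up 9 of the 26251 genes in the gene lists of the libraries, and all 9 were listed in each of the 6 libraries. Single cells of gonads at E15.5 were profiled by droplet RNA-seq (10x Genomics), in which each transcript molecule carries a unique molecular identifier (UMI). The 3 groups, with 2 libraries each, were testes with both Amh and Inhbb genes intact (control XY), XY gonads that lacked both genes (Amh -/-; Inhbb -/-, dKO XY) and ovaries with both genes intact (control XX). The labels call the dKO XY gonads testes, and they are counted among the testes here. The paper describes them at this age as ovotestes, with granulosa-like FOXL2-positive cells and meiotic germ cells at the poles. Mice of all groups came from crosses of Amh and Inhbb heterozygotes on a C57BL/6 background, both knockouts are carried in every cell of the embryo, and cells were frozen and thawed before library construction. The methods call the 2 libraries of a group biological replicates, with the gonads of 1 animal pooled before dissociation, but the labels tie no library to an animal or a day, so part of the spread behind the p-values may be technical.

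TGF-beta ligands are secreted in a latent form and, once released, bind a type II receptor, TGFBR2, which then activates a type I receptor. TGFBR1 (ALK5) signals through SMAD2 and SMAD3, whereas ACVRL1 (ALK1), a receptor best known from blood vessels, signals through the SMADs of the BMP branch with the help of the coreceptor endoglin (ENG). SMAD7 is induced by the pathway and shuts it off. AMH and the inhibin beta B product, which forms activin B and inhibin B, belong to the same superfamily of ligands, and in the fetal testis both come from Sertoli cells.

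After filtering, 39350 of 68064 barcodes were kept, 4781 to 8569 per library, with 118475468 to 221675316 UMIs per library and a median of 18415 to 27124 UMIs per cell. Of the kept barcodes, 175 occurred in more than 1 library. Before filtering, 24.4% and 28.3% of barcodes in the dKO XY libraries had at least 25% mitochondrial UMIs, against 2.22% to 9.35% in the other libraries. In supporting cells, Amh stood at 2034 and 1908 CPM in control XY (UMIs of a gene scaled to all UMIs of that cell type in the library), at 18.1 and 15.8 CPM in dKO XY and at 1.35 and 1.43 CPM in control XX. Inhbb stood at 161 and 186, 41.8 and 50.9, and 37.4 and 25.4 CPM. Where the knockout alleles lie relative to the counted transcript ends is not given in the sources used here, so the remaining Inhbb UMIs do not check the labels. Cells were clustered without the 9 genes, 33 further genes of the pathway, Amh and Inhbb, and clusters were named from markers. The 7 endothelial markers summed to 4132 to 4822 CPM in endothelial cells, and the 8 immune markers to 14280 to 18420 CPM in immune cells, with no marker at 0 in either. Leydig-like cells formed a population only in the testes. Control XY 1 and control XY 2 held 15 and 7 germ cells, so only the former entered sums, which needed at least 10 cells.

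Eng and Tgfbr2 had the highest folds of endothelial cells over the other cell types among the 9 genes, and for that reason the 250 bases before their start sites are shown, 5′ to 3′ on the gene's own strand, from RefSeq promoter entries on GRCm38.p6. The Eng stretch covers chr2:32646345-32646594 (plus strand) and the Tgfbr2 stretch covers chr9:116175364-116175613 (minus strand). Capitals mark AGGAAG or its reverse complement CTTCCT, letters that hold the GGAA core to which ETS factors, among them factors of endothelial cells, are known to bind. The letters were chosen with the sequences in view.
Eng: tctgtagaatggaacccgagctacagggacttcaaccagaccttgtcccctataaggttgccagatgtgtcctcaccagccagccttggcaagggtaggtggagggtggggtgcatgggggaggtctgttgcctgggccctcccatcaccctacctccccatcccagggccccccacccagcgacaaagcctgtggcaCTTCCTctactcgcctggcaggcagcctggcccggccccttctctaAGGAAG
Tgfbr2: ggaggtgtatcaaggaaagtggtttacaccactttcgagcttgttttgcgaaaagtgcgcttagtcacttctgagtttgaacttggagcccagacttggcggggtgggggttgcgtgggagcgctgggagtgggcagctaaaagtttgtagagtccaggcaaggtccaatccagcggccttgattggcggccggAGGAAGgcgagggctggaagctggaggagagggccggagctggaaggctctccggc

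The Eng stretch held the letters in reverse 52 bases before the start site and forward 6 bases before it, and the Tgfbr2 stretch held them forward 56 bases before it. On either strand, 9686 of 32851 promoter entries of this length held them, or 29.5%. Of the 9 genes, Smad7 (chromosome 18) was left out of the search, whereas the share over all entries was not restricted in this way. Of the rest, 6 had 7 entries between them. Of the 7, 4 held a match (Eng, Tgfbr2, Tgfb1 and 1 of the 2 entries of Tgfbr1), while those of Tgfb2 and Smad3 held none. A match describes these letters in these windows and says nothing of binding. Tgfb3 and Acvrl1 had no entry.

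In the mm10 assembly (GRCm38), with GENCODE M21 gene models, Tgfb1 lies at chr7:25687002-25705077 on the plus strand. The other ligands lie at chr1:186622792-186705989 (Tgfb2, minus strand) and chr12:86056745-86079041 (Tgfb3, minus strand). The type I receptors are at chr4:47353222-47414931 (Tgfbr1, plus strand) and chr15:101128522-101145336 (Acvrl1, plus strand), and the type II receptor Tgfbr2 is at chr9:116084293-116175360 on the minus strand. Eng is at chr2:32646595-32682669 on the plus strand, Smad3 at chr9:63646767-63757994 on the minus strand and Smad7 at chr18:75367529-75395935 on the plus strand. All 9 are protein-coding.

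Tgfb1 was high in endothelial and immune cells and low elsewhere. In control XY it stood at 203 and 205 CPM in endothelial cells and at 209 and 194 CPM in immune cells, ranges that overlapped. Pericytes followed at 34.5 and 35.3 CPM. Interstitial cells (25.1 and 25.3 CPM) and supporting cells (24.98 and 24.7 CPM) lay close together without overlap. Epithelial cells (11.1 and 20.99 CPM) and Leydig-like cells (11.3 and 12.3 CPM) overlapped each other at the low end. In dKO XY the immune libraries (205 and 217 CPM) stood apart above the endothelial ones (152 and 156 CPM).

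**Figure D1:**
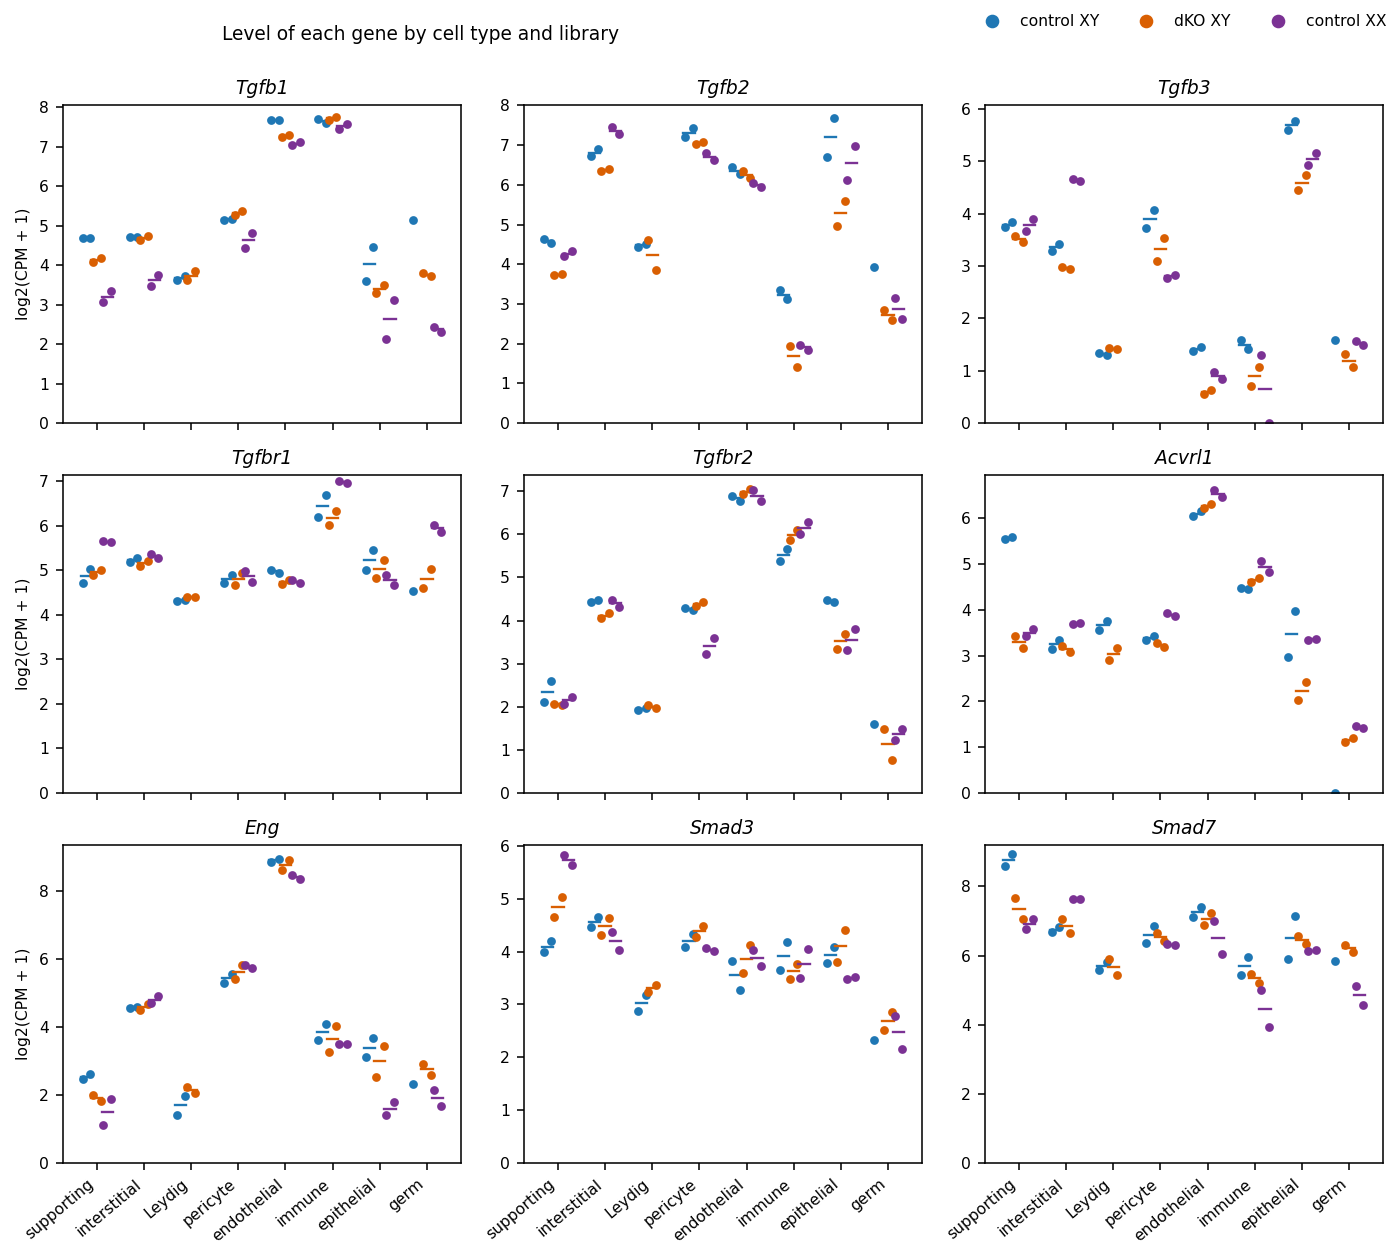
Level of each of the 9 genes in each cell type, as log2(CPM + 1) on the vertical axis, with 1 point per library coloured by group and a line at the mean of the log2 values of the group where it has 2 libraries. Eng and Tgfbr2 peak in endothelial cells, Tgfb1 in endothelial and immune cells, and Acvrl1 is high in supporting cells of control XY, with 45.8 and 47.0 CPM, but not of dKO XY or control XX.

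Tgfb2 was high in pericytes, interstitial, epithelial and endothelial cells, in an order that differed between the groups. Control XY pericytes stood at 146 and 172 CPM, epithelial cells at 104 and 205 CPM and interstitial cells at 105 and 118 CPM, each overlapping the next. Endothelial cells (85.9 and 75.9 CPM) lay below these, supporting cells (23.9 and 22.1 CPM) and Leydig-like cells (20.8 and 21.9 CPM) lower still, and immune cells lowest, at 9.19 and 7.73 CPM. In control XX, interstitial cells led at 174 and 155 CPM, above pericytes at 109.7 and 97.5 CPM. In dKO XY, epithelial cells, at 30.4 and 47.2 CPM, lay below endothelial cells, at 80.1 and 71.1 CPM. Tgfb3 was highest in epithelial cells, at 47.1 and 53.7 CPM in control XY, with pericytes at 12.3 and 15.7 CPM and supporting cells at 12.4 and 13.2 CPM overlapping. Endothelial cells held 1.60 and 1.74 CPM of it and overlapped immune cells near the low end.

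Among the receptors, Tgfbr1 was highest in immune cells, at 72.4 and 102 CPM in control XY, and its group means in the other types of the testis ranged from 19.0 CPM in Leydig-like cells to 36.7 CPM in epithelial cells. Tgfbr2 was concentrated in endothelial and immune cells. Its level was 117 and 109 CPM in control XY endothelial cells, 40.8 and 49.1 CPM in immune cells and 20.4 and 21.4 CPM in interstitial cells, without overlap between these. Supporting cells held 3.29 and 5.08 CPM of it, and in each of the 3 groups supporting cells, with Leydig-like and germ cells where these were measured, formed the low end. Leydig-like cells held 2.81 and 2.94 CPM in the same libraries. With each cell thinned to 5000 UMIs, 1.53% and 2.99% of control XY supporting cells held a Tgfbr2 UMI, against 1.18% and 1.45% of Leydig-like and 37.1% and 37.1% of endothelial cells (8.43% and 11.4%, 10.8% and 9.96%, and 85.6% and 86.7% unthinned, at median depths of 25662 and 22959, 41148 and 36177, and 26306 and 43804 UMIs). Whether the Tgfbr2 UMIs of supporting cells were their own transcripts was not tested.

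Acvrl1 was highest in endothelial cells in each group, at 65.0 and 70.1 CPM in control XY. In control XY supporting cells came next, at 45.8 and 47.0 CPM, above immune cells at 21.2 and 20.97 CPM. In dKO XY and control XX immune cells were second, and supporting cells fell among the pericytes, interstitial and Leydig-like cells or below them. Eng stood at 469 and 499 CPM in control XY endothelial cells, at 38.6 and 46.7 CPM in pericytes and at 22.9 and 23.2 CPM in interstitial cells. This order was kept in all 3 groups without overlap. Supporting cells held 4.51 and 5.14 CPM of Eng.

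Smad3, the receptor-activated SMAD of the list, had a narrow range in control XY, with overlapping levels from pericytes through supporting, epithelial and immune to endothelial cells. Interstitial cells, at 20.97 and 24.1 CPM, stood above these and supporting cells reached 14.9 and 17.3 CPM. In control XX supporting cells led at 55.9 and 48.5 CPM, apart from interstitial cells at 19.7 and 15.2 CPM. Smad7 led in control XY supporting cells, at 382 and 491 CPM, with endothelial cells next at 139 and 169 CPM. In control XX interstitial cells led, at 199 and 199 CPM, and supporting cells (107 and 133 CPM) overlapped endothelial cells (128 and 64.5 CPM).

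Each cell type was then compared with the mean of the other types, with the library as a block, by edgeR's quasi-likelihood test on summed counts. A gene was called at an adjusted p (Benjamini-Hochberg over 15613 genes) under 0.05. In endothelial cells 6 of the 9 genes were higher and 2 lower, where 26.7% of all genes tested were called higher and 32.8% lower. The median of the 9 log2 fold changes was 1.37, against -0.13 over all genes. Eng was higher by 5.67 ± 0.14 (SE) on the log2 scale (adjusted p = 2.65e-29), Tgfbr2 by 3.80 ± 0.11, Acvrl1 by 3.14 ± 0.19 and Tgfb1 by 2.99 ± 0.12. Every SE given here was derived from the test, as the absolute log2 fold change over the square root of its F statistic. Tgfb3 was lower, at -2.56 ± 0.31. In immune cells 4 were higher and 3 lower (27.2% and 37.5% of genes), with Tgfb1 at 3.56 ± 0.13, Tgfbr2 at 2.85 ± 0.13, Tgfbr1 at 1.83 ± 0.11 and Tgfb2 at -2.89 ± 0.31. Pericytes had 5 higher and 1 lower (23.3% and 26.2%), led by Tgfb2 at 2.28 ± 0.16 and Eng at 2.05 ± 0.17. Of their calls, Smad3 was lost without either dKO XY library, with adjusted p = 0.0867 without dKO XY 1, and Tgfbr2 without dKO XY 2 (adjusted p = 0.0687).

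Interstitial cells had 6 higher and 1 lower (28.8% and 26.2%), led by Tgfb2 at 2.06 ± 0.16 and Tgfb3 at 1.60 ± 0.19, and a median of 0.68 against -0.01 over all genes. Smad7 was among them at 0.86 ± 0.20, but stood at -0.05 in the control XY libraries alone. Supporting cells had 4 higher and 4 lower (31.3% and 24.5%). The higher ones were Tgfb3 at 1.39 ± 0.18, Smad7 at 1.38 ± 0.19, Smad3 at 1.18 ± 0.14 and Acvrl1 at 0.61 ± 0.23, and the lower ones were led by Eng at -2.74 ± 0.23 and Tgfbr2 at -2.22 ± 0.16. In the control XY libraries alone Smad3 stood at 0.35 (adjusted p = 0.0948). The call of Acvrl1 was lost without control XY 1 (0.20, adjusted p = 0.483) or control XY 2 (0.29, adjusted p = 0.29), the libraries in which its supporting level was high. Epithelial cells had 2 higher and 4 lower (24.3% and 21%), led by Tgfb3 at 3.17 ± 0.18. Tgfbr1 was called lower there at -0.31, a call lost without dKO XY 1, control XX 1 or control XX 2 (adjusted p up to 0.194). It was also lost with DESeq2 (adjusted p = 0.0658), RLE size factors (0.0875), no filter on low counts (0.0525) and without cells scored as doublets (0.0582). The call of Acvrl1, at -0.94, was lost without dKO XY 1 (adjusted p = 0.0534). In the control XY libraries alone Tgfbr1 stood at 0.09 and Acvrl1 at 0.749 in epithelial cells.

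Leydig-like cells had 0 higher and 8 lower of the 9 (31.6% and 28.8%), and germ cells likewise 0 and 8 (38.4% and 34.4%). In Leydig-like cells the lowest were Eng at -2.54 ± 0.27 and Tgfbr2 at -2.16 ± 0.19, and the call of Tgfb2 was lost without either control XY library or dKO XY 2 (adjusted p up to 0.146). In germ cells they were Tgfbr2 at -3.44 ± 0.23 and Acvrl1 at -3.35 ± 0.39. With the control XY libraries alone, where germ cells are 1 sum of 15 cells, 4 rather than 8 were called in germ cells.

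**Figure D2:**
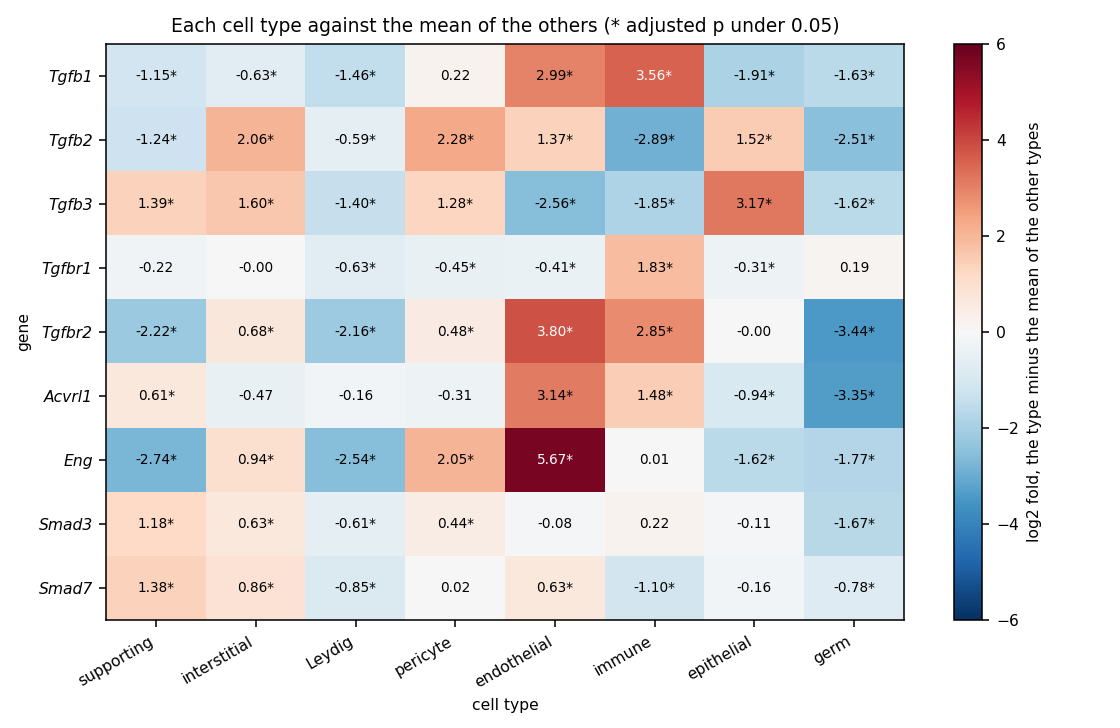
Heatmap of the log2 fold change of each of the 9 genes (rows) in each cell type against the mean of the other types (columns), with an asterisk where the adjusted p was under 0.05. The endothelial column is high for Eng (5.67), Tgfbr2 (3.80), Acvrl1 (3.14) and Tgfb1 (2.99), and the Leydig and germ columns are low.

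In supporting cells, the lineage of Sertoli and granulosa cells, Acvrl1, Smad7, Tgfb1 and Tgfb2 were called lower and Smad3 higher in dKO XY against control XY. Within Sertoli-like cells Acvrl1, Smad7 and Tgfb1 were called lower again, and Smad3 and Tgfb2 were not called. With a library left out, the calls of Acvrl1, Smad7 and Tgfb2 were lost in 0 of 6 fits, that of Smad3 in 3 and that of Tgfb1 in 4, and the Tgfb2 call was lost without cells scored as doublets. In dKO XY, 1 of the 9 genes was higher and 4 were lower than in control XY, where 16.7% of 15939 genes were called in either direction. The median log2 fold change of the 9 genes was -0.58, against 0.02 over all genes. A sum over a cell type cannot tell fewer cells with the transcript from less transcript per cell. In the same sums germ cell markers stood at 71.4 and 20.3 CPM in control XY and 158 and 216 CPM in dKO XY, and Leydig markers at 144 and 194 against 249 and 256 CPM, and their part in these results was not tested.

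Acvrl1 was at 45.8 and 47.0 CPM in control XY, at 9.75 and 7.99 CPM in dKO XY and at 9.72 and 10.9 CPM in control XX. The dKO XY libraries lay among or next to the control XX libraries and far below control XY. The log2 fold change was -2.38 ± 0.15 in dKO XY (adjusted p = 1.16e-05) and -2.23 ± 0.14 in control XX (adjusted p = 1.54e-06), and dKO XY and control XX differed by -0.15 (adjusted p = 0.426). Smad7 was at 382 and 491 CPM in control XY, at 203 and 132 CPM in dKO XY and 107 and 133 CPM in control XX. Again control XY stood apart on top and the other groups met at the lower end. Smad7 changed by -1.38 ± 0.21 in dKO XY (adjusted p = 0.00173) and by -1.92 ± 0.21 in control XX (adjusted p = 4.9e-05).

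Smad3 ran the other way. It was at 14.9 and 17.3 CPM in control XY, at 24.0 and 31.7 CPM in dKO XY and 55.9 and 48.5 CPM in control XX, so that the dKO XY libraries fell between the controls without overlap. The log2 fold changes were 0.79 ± 0.17 for dKO XY (adjusted p = 0.0124), 1.64 ± 0.17 for control XX (adjusted p = 3.98e-05) and -0.85 ± 0.16 for dKO XY against control XX (adjusted p = 0.00227). Without control XY 1, control XY 2 or dKO XY 2 the dKO XY call was lost, with adjusted p between 0.0535 and 0.0823.

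Of the ligands, Tgfb1 was at 24.98 and 24.7 CPM in control XY, at 16.1 and 17.0 CPM in dKO XY and 7.42 and 9.11 CPM in control XX. It too was intermediate in dKO XY, with no overlap. The log2 fold changes were -0.58 ± 0.15 for dKO XY (adjusted p = 0.0259), -1.65 ± 0.15 for control XX (adjusted p = 1.48e-05) and 1.07 ± 0.15 for dKO XY against control XX (adjusted p = 0.000303). The dKO XY call was lost without any 1 of the control XY and dKO XY libraries, with adjusted p up to 0.124. Tgfb2 was at 23.9 and 22.1 CPM in control XY, at 12.2 and 12.4 CPM in dKO XY and 17.4 and 19.1 CPM in control XX. Here dKO XY was the lowest group. It changed by -0.89 ± 0.14 (adjusted p = 0.0021) in dKO XY and by -0.39 ± 0.14 (adjusted p = 0.0373) in control XX, and dKO XY differed from control XX by -0.50 ± 0.13 (adjusted p = 0.0131). Without cells scored as doublets the dKO XY change was -0.37 (adjusted p = 0.151) and the control XX change was 0.25 (adjusted p = 0.214). The control XX call was also lost without any 1 of the 4 libraries compared. It was lost too with the replicate number as a block (-0.389, adjusted p = 0.072) and with no filter on low counts (-0.354, adjusted p = 0.0956). The call between dKO XY and control XX was lost without dKO XY 1 or control XX 2. For cells under 10% mitochondrial UMIs the difference between dKO XY and control XX was -0.25 (adjusted p = 0.349). The 8 interstitial markers summed to 629 and 643 CPM in supporting cells of control XY, 281 and 267 CPM in dKO XY and 166 and 263 CPM in control XX, and their part in the Tgfb2 result was not tested.

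Tgfb3 was at 12.4 and 13.2, 10.8 and 9.99, and 11.7 and 13.9 CPM in the 3 groups in this order and was not called in any of the 3 comparisons. Control XX overlapped control XY, and dKO XY lay below both. Tgfbr1 was at 25.1 and 31.4 CPM in control XY, at 28.7 and 31.2 CPM in dKO XY and 49.0 and 48.8 CPM in control XX. The testis groups overlapped and control XX stood above them, by 0.73 ± 0.14 over control XY (adjusted p = 0.00157), and dKO XY was at -0.65 ± 0.13 against control XX (adjusted p = 0.00327). Tgfbr2, at 3.12 to 5.08 CPM over all 6 libraries, was not called. Eng was at 4.51 and 5.14 CPM in control XY, at 2.97 and 2.53 CPM in dKO XY and 1.17 and 2.67 CPM in control XX. It fell in control XX (-1.47 ± 0.37, adjusted p = 0.00906), a call lost without control XY 2 (adjusted p = 0.0629), and had a log2 fold change of -0.81 in dKO XY (adjusted p = 0.175). Within Sertoli-like cells of control XY (1.49 and 1.57 CPM) and granulosa-like cells of control XX (0.98 and 1.64 CPM) Eng overlapped. In supporting cells the 7 endothelial markers summed to 33.6 to 37.3 CPM in all 6 libraries, whereas the 7 pericyte markers summed to 128 and 152 CPM in control XY, 122 and 85.0 CPM in dKO XY and 22.1 and 40.7 CPM in control XX and the interstitial markers moved as given for Tgfb2. Their part in the Eng result was not tested.

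Between control XX and control XY, 2 of the 9 genes were higher and 5 lower in supporting cells (48.9% of genes called), and between dKO XY and control XX, 1 was higher and 3 were lower (40.9%). Of the 33 further pathway genes 30 were tested. In dKO XY against control XY, 2 were higher and 5 lower, led by the TGF-beta-induced matrix gene Tgfbi (3.80), the BMP-branch inhibitory SMAD Smad6 (-2.17) and the latent TGF-beta binding proteins Ltbp1 (1.38) and Ltbp4 (-1.32). In control XX against control XY, 8 were higher and 10 lower, led by the target genes Ctgf (-3.39), Pmepa1 (-2.98) and Tgfbi (2.62) and the fibrillin Fbn1 (-2.45). In dKO XY against control XX, 9 were higher and 5 lower, led by Ctgf (4.36), Id3 (-2.29), the integrin Itgb8 (2.10) and Id1 (-1.94). The medians of these 3 comparisons were -0.15, -0.38 and -0.03.

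**Figure D3:**
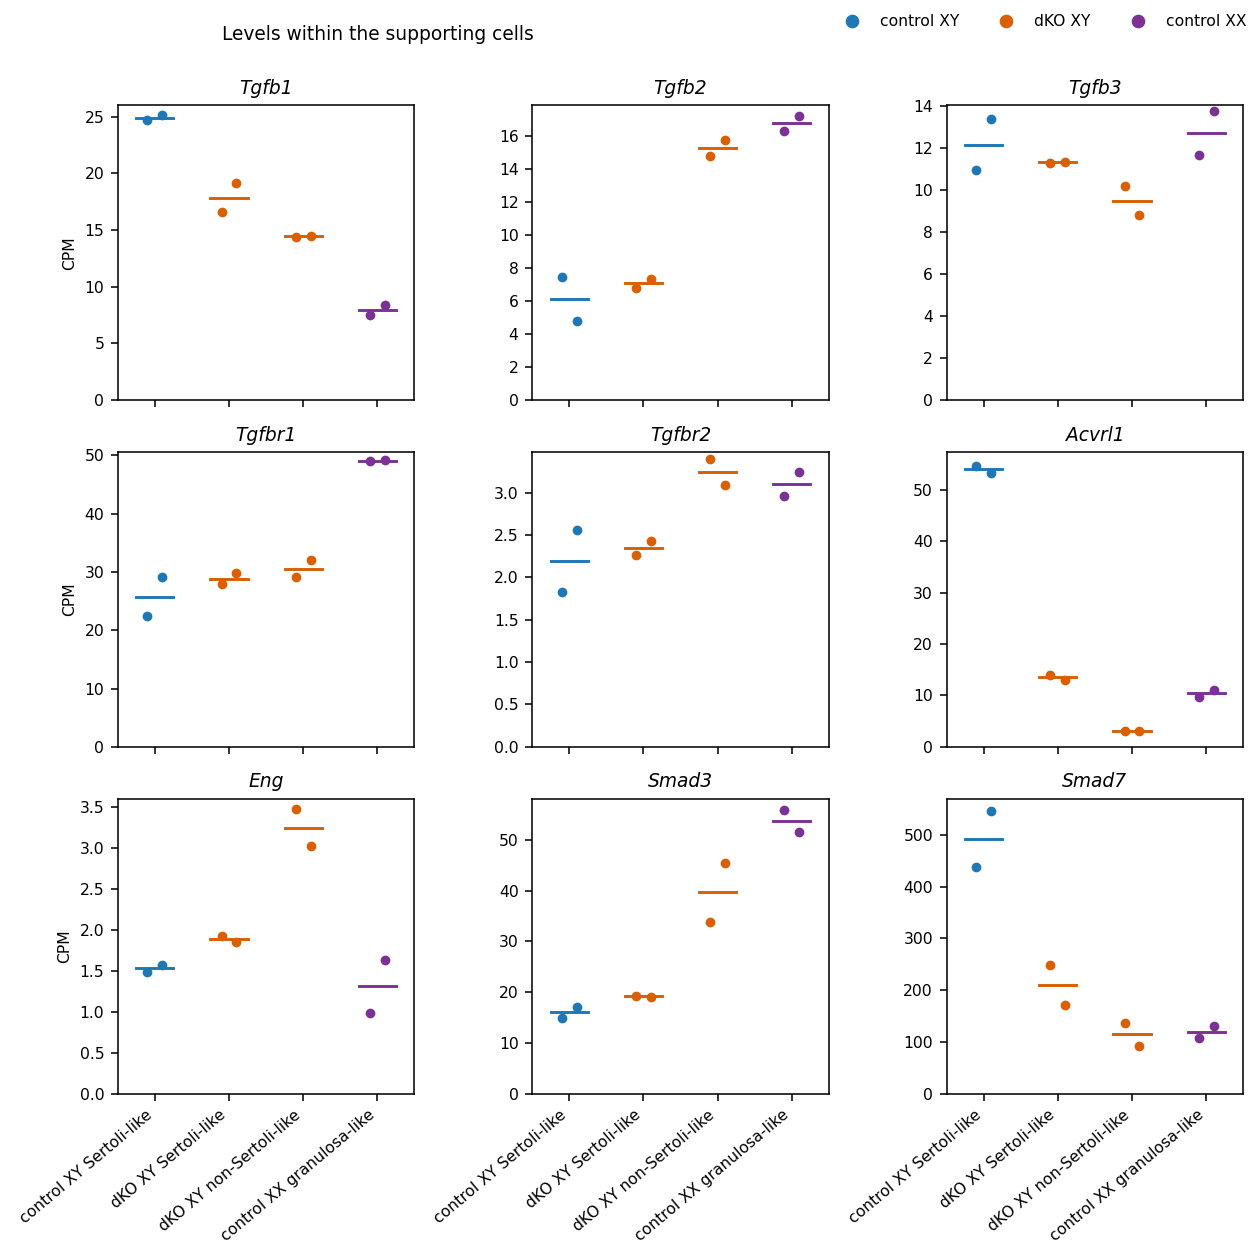
Level in CPM (vertical axis) of each of the 9 genes in control XY Sertoli-like, dKO XY Sertoli-like, dKO XY non-Sertoli-like and control XX granulosa-like cells, with 1 point per library and a line at the mean of the 2. Acvrl1 drops from 54.7 and 53.2 CPM to 13.9 and 13.1 CPM within Sertoli-like cells and is lowest, at 3.15 and 3.03 CPM, in dKO XY non-Sertoli-like cells.

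Supporting cells of dKO XY were a mixture, and the 9 genes were therefore also read within its subclusters. Sertoli-like cells numbered 190 and 407 in control XY and 677 and 421 in dKO XY. Supporting cells in which Sycp3 or Tcf21 reached a log-normalized level of 1 were left out before subclustering, so the subclusters do not hold all of the 261 and 535 supporting cells of control XY or the 1286 and 958 of dKO XY. Of the subclustered cells, 499 and 470 in dKO XY lay outside the Sertoli-like subclusters. Of these, 437 and 446 were in a subcluster led by Cyp11a1, Cpa1, Smoc2 and Robo2 that stayed unnamed, and the rest were granulosa-like. The unnamed subcluster also held 12 and 26 cells of control XY and 21 and 9 of control XX, which were left out of the populations compared below. Control XX held 2719 and 902 granulosa-like cells. The granulosa factor Foxl2 was at 1.16 and 0.165 CPM in control XY Sertoli-like cells and at 3.44 and 9.85 CPM in dKO XY Sertoli-like cells. It was at 76.7 and 114 CPM in dKO XY cells outside the Sertoli-like subclusters and at 215 and 206 CPM in control XX granulosa-like cells. The Sertoli factor Sox9 ran at 430 and 411, 500 and 475, 132 and 95.7, and 84.7 and 103 CPM in these populations, in this order. In the same order the 8 granulosa markers summed to 55.6 and 52.6, 402 and 449, 1213 and 1104, and 2804 and 2650 CPM. Sertoli-like cells of dKO XY thus held more granulosa transcripts than those of control XY, and the part of this in the results below was not tested.

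Within Sertoli-like cells dKO XY had 0 higher and 3 lower of the 9 genes, where 13.8% of 14977 genes were called. All tests between the subcluster populations came from a shared fit with no term for the library. Each dKO XY library gave that fit both its Sertoli-like and its other supporting sum, treated as independent. Acvrl1 was at 54.7 and 53.2 CPM in control XY against 13.9 and 13.1 CPM in dKO XY, well apart, a change of -2.04 ± 0.13 (adjusted p = 7.84e-06). Smad7 was at 437 and 546 CPM in control XY against 248 and 171 CPM in dKO XY, also apart, a change of -1.28 ± 0.21 (adjusted p = 0.0025). Tgfb1 was at 24.7 and 25.1 CPM against 16.6 and 19.1 CPM, a change of -0.53 ± 0.15 (adjusted p = 0.0359), lost without control XY 1, control XY 2 or dKO XY 1 (adjusted p up to 0.227), with DESeq2 (adjusted p = 0.0631) or for cells under 10% mitochondrial UMIs (adjusted p = 0.0631). Smad3 (14.9 and 17.1 against 19.3 and 19.0 CPM) and Tgfb2 (7.46 and 4.79 against 6.79 and 7.36 CPM) were not called. Tgfb2 in control XY Sertoli-like cells was thus below its level in all supporting cells of the same libraries, and there the interstitial markers summed to 118 and 151 CPM. Germ cell markers in Sertoli-like cells summed to 93.4 and 23.1 CPM in control XY and 244 and 337 CPM in dKO XY, and their part in these results was not tested. Of the further pathway genes 1 was higher and 5 lower, led by Tgfbi (4.02), Smad6 (-2.92), Ltbp3 (-0.97) and Fbn1 (-0.84).

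The dKO XY supporting cells outside the Sertoli-like subclusters were compared with control XY Sertoli-like cells, giving 3 higher and 3 lower of the 9 genes (40.9% of genes called). Acvrl1, at 3.15 and 3.03 CPM, changed by -4.08 ± 0.16 (adjusted p = 5.41e-08) and lay below every other supporting population. Smad7 (137 and 93.0 CPM) changed by -2.05 ± 0.22 and Tgfb1 (14.4 and 14.5 CPM) by -0.74 ± 0.15. Higher were Tgfb2 (14.8 and 15.8 CPM, 1.43 ± 0.21), Smad3 (33.8 and 45.5 CPM, 1.35 ± 0.16) and Eng (3.48 and 3.03 CPM, 1.12 ± 0.37, adjusted p = 0.0309). The Eng call was lost without any 1 of the 4 libraries compared, with adjusted p up to 0.132, and for cells under 10% mitochondrial UMIs its value was 0.685 (adjusted p = 0.27), and it was also lost with DESeq2 (adjusted p = 0.0787) and with all variable genes (adjusted p = 0.117). Interstitial markers summed to 277 and 318 CPM in these cells against 118 and 151 CPM in control XY Sertoli-like cells, and Leydig markers to 504 and 404 against 143 and 186 CPM, and their part in these results was not tested. Among the pathway genes 6 were higher and 6 lower, led by Tgfbi (3.62), the coreceptor Tgfbr3 (3.45), Thbs1 (2.99) and Ltbp1 (2.80). The subclusters come from variable genes of the same cells, so these are differences between populations of the same gonads as well as between genotypes.

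Against control XX granulosa-like cells the same dKO XY cells had 2 higher and 2 lower of the 9 genes (27.5% of genes called). Acvrl1 was at 9.75 and 11.1 CPM in control XX granulosa-like cells and lower in dKO XY (-1.62 ± 0.16, adjusted p = 3.95e-05). Tgfbr1 (29.0 and 32.1 CPM against 49.0 and 49.2 CPM) changed by -0.55 ± 0.13 (adjusted p = 0.011), lost without dKO XY 1 (adjusted p = 0.0758). Tgfb1 was higher (14.4 and 14.5 against 7.50 and 8.41 CPM, 1.00 ± 0.15). Eng was higher too (3.48 and 3.03 against 0.98 and 1.64 CPM, 1.504 ± 0.315), a call lost without control XX 1 (adjusted p = 0.0557). In none of these genes did the groups overlap. Smad3 differed by -0.30 ± 0.15 (adjusted p = 0.152), Tgfb2 by 0.00 ± 0.18 and Smad7 by 0.09 ± 0.21. Granulosa-like cells were themselves not uniform in Tgfb2. It was a leading gene, at 39.6 CPM, of a granulosa subcluster that held 1033 and 355 of the control XX granulosa-like cells. The part of this in the Tgfb2 difference was not tested. Interstitial markers summed to 277 and 318 CPM in the dKO XY cells and 144 and 164 CPM in control XX granulosa-like cells, Leydig markers to 504 and 404 against 91.7 and 79.98 CPM, and pericyte markers to 90.98 and 65.4 against 19.2 and 23.7 CPM. Their part in these results was not tested. Against these cells 8 pathway genes were higher and 3 lower, led by Ctgf (4.10), Lrrc32 (2.39), Tgfbr3 (2.33) and Pmepa1 (1.87).

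In interstitial cells, the mesenchyme between cords, Tgfb2 and Tgfb3 were called lower in dKO XY, and Tgfb1 overlapped, with 25.1 and 25.3 CPM in control XY against 23.9 and 25.6 CPM in dKO XY. In dKO XY, 0 of the 9 genes were higher and 2 lower than in control XY (7.05% of 16983 genes called), and the median of the 9 was -0.09, against -0.01 over all genes. Tgfb2 was at 105 and 118 CPM in control XY against 80.1 and 83.6 CPM in dKO XY, a change of -0.45 ± 0.10 (adjusted p = 0.0299). Tgfb3 was at 8.71 and 9.74 CPM against 6.94 and 6.65 CPM, a change of -0.45 ± 0.11 (adjusted p = 0.0485). Neither gene's groups overlapped, but both calls were lost without any 1 of the 4 libraries compared, with adjusted p up to 0.308 for Tgfb2 and 0.362 for Tgfb3, and that of Tgfb3 also without either control XX library. Tgfbr2 was at 20.4 and 21.4 CPM against 15.6 and 17.0 CPM (-0.37, adjusted p = 0.0575). Acvrl1 (7.87 and 9.11 against 8.24 and 7.48 CPM) and Smad7 (102 and 112 against 131 and 99.8 CPM) overlapped between the groups.

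Control XX interstitial cells had 4 higher and 1 lower of the 9 genes (25.2% of genes called), and the median was 0.30, against 0.00 over all genes. Tgfb3 was at 24.3 and 23.5 CPM, above both control XY libraries, a change of 1.44 ± 0.11 (adjusted p = 5.64e-05). Smad7, at 199 and 199 CPM, changed by 0.96 ± 0.15 (adjusted p = 0.00208) and Tgfb2, at 174 and 155 CPM, by 0.62 (adjusted p = 0.00226). Acvrl1 was at 11.95 and 12.01 CPM, a change of 0.56 ± 0.13 (adjusted p = 0.0137). Its call was lost without control XY 1 or control XX 2. Tgfb1 ran the other way, at 10.1 and 12.6 CPM against 25.1 and 25.3 CPM, a change of -1.07 ± 0.14 (adjusted p = 0.000926). No groups overlapped in these genes.

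Interstitial cells of the ovary and the testis fell into different clusters. Cluster 2, led by Lum, Il33 and Tgfbi, held 1536 of 1543 and 2955 of 2958 interstitial cells of control XX. Clusters 0 and 1 held all but 261 and 236 of the 5305 and 6331 of control XY. They held all but 640 and 312 of the 4800 and 2980 of dKO XY. Within cluster 2, Tgfb2 was at 175 and 240.3 CPM in control XY against 174 and 155 CPM in control XX, and Tgfb3 at 18.1 and 42.7 against 24.1 and 23.5 CPM. The control XX changes of both were there -0.30 (adjusted p = 0.313 and 0.579), of the opposite sign to those over all interstitial cells. Smad7 (93.4 and 105 against 199.5 and 199 CPM) and Tgfb1 (31.1 and 29.2 against 10.1 and 12.6 CPM) kept their calls within cluster 2, and Acvrl1 did not (0.05, adjusted p = 0.906). Cluster 0, the largest interstitial cluster of the testes, had 108 and 119 CPM of Tgfb2 in control XY and 84.6 and 87.0 CPM in dKO XY.

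**Figure D4:**
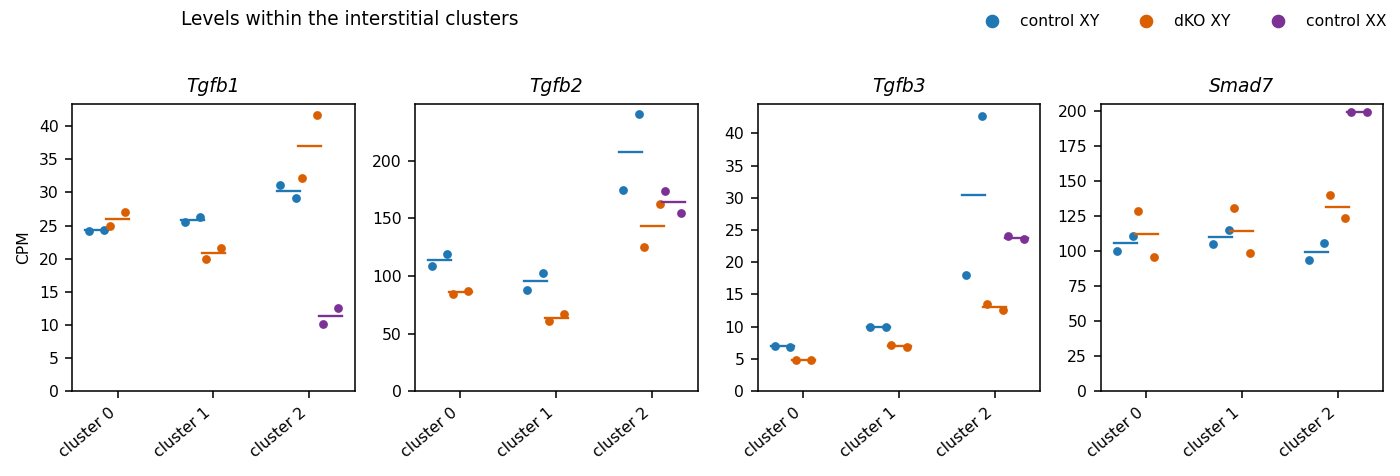
Level in CPM (vertical axis) of Tgfb1, Tgfb2, Tgfb3 and Smad7 in interstitial clusters 0, 1 and 2 (horizontal axis), with 1 point per library coloured by group and a line at the group mean. In cluster 2 the control XX points for Tgfb2 (174 and 155 CPM) lie at or below those of control XY (175 and 240.3 CPM), while Smad7 stays higher in control XX.

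Of the further pathway genes, interstitial dKO XY cells had 1 higher and 2 lower (7.05% of all genes called), Tgfbi (0.91), Ltbp4 (-0.77) and Ltbp3 (-0.49). In control XX interstitial cells, 9 were higher and 5 lower (25.2% of all genes called), led by Tgfbi (3.71), the BMP target Id3 (2.57), Ltbp1 (2.37) and Ltbp2 (1.44). Tgfbi is a leading gene of cluster 2, and the part of the clusters in the folds of both groups was not tested.

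Endothelial cells, which held the highest levels of Eng, Tgfbr2 and Acvrl1, had few called genes of any kind between dKO XY and control XY. Of the 8 genes tested (Tgfb3 was too low), 0 were called in dKO XY, where 0.567% of 11992 genes were. An unadjusted p under 0.05 was reached by 1, and the share of all genes that reached it was not counted. Eng was at 395 and 481 CPM in dKO XY and 469 and 499 CPM in control XY, which overlapped, and Tgfbr2 was at 121 and 132 against 117 and 109 CPM. Tgfb1 lay apart at 152 and 156 against 203 and 205 CPM, a log2 fold change of -0.40 (adjusted p = 0.243). In control XX, 1 was higher and 1 lower (4.76% of genes). Tgfb1, at 130.45 and 138 CPM, changed by -0.56 ± 0.12 (adjusted p = 0.0191), lost without control XY 1, control XY 2 or control XX 1 (adjusted p up to 0.252). Acvrl1, at 96.4 and 87.5 CPM against 65.0 and 70.1 CPM, changed by 0.49 ± 0.13 (adjusted p = 0.0486), lost without any 1 of these 4 libraries (adjusted p up to 0.33) and with DESeq2 (adjusted p = 0.0921). Eng, at 358 and 327 CPM, lay below both control XY libraries (-0.45, adjusted p = 0.0728). Leydig markers in endothelial cells summed to 386 and 505 CPM in control XY, 432 and 801 CPM in dKO XY and 3.87 and 3.33 CPM in control XX, and their part in these results was not tested. Of the further pathway genes 1 was higher and 2 lower in dKO XY, Nrros (0.88), Ltbp3 (-1.62) and the integrin Itgav (-1.04), and 2 were higher and 5 lower in control XX, among them Fbn1 (-1.74), Itgav (-1.53) and Ltbp3 (-1.35).

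**Figure D5:**
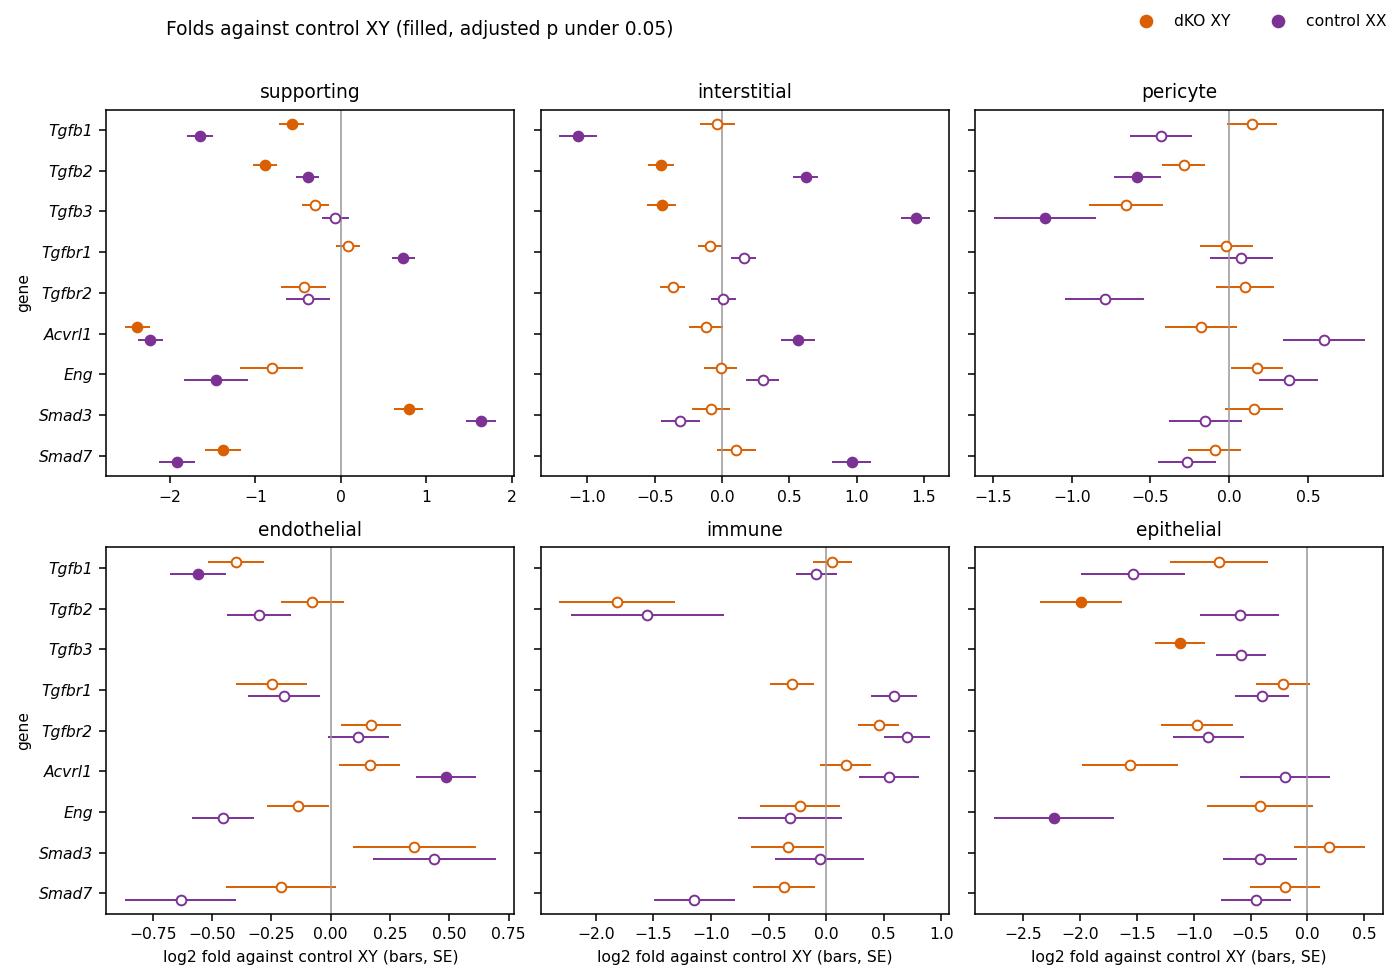
Log2 fold change (horizontal axis) with its SE of each of the 9 genes against control XY in 6 cell types, for dKO XY and for control XX, with filled points where the adjusted p was under 0.05. Filled dKO XY points number 5 of 9 in supporting cells, where 16.7% of all genes were called, and 0 in endothelial cells (0.567%), pericytes (0.325%) and immune cells (0.183%).

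In pericytes, the mural cells of vessels, 0 of the 9 genes were called in dKO XY (0.325% of 11995 genes). An unadjusted p under 0.05 was reached by 1, and the share of all genes that reached it was not counted. In control XX, 0 were higher and 2 lower (7.71%). Tgfb2 was at 146 and 172 CPM in control XY, at 129.7 and 133 CPM in dKO XY and 109.7 and 97.5 CPM in control XX, without overlap. Its change in control XX was -0.58 ± 0.15 (adjusted p = 0.0251), lost without control XY 1, control XY 2 or control XX 2 (adjusted p up to 0.34). Tgfb3, at 12.3 and 15.7 CPM in control XY and 5.82 and 6.10 CPM in control XX, changed by -1.17 ± 0.32 (adjusted p = 0.0408). This call was lost without any 1 of the 4 libraries, with DESeq2 (adjusted p = 0.178) and at resolution 0.5 (-0.919, adjusted p = 0.0964). The 7 pericyte markers themselves summed to 3368 and 3395 CPM in control XY, 2819 and 2547 CPM in dKO XY and 2039 and 1957 CPM in control XX, and their part in the ligand results was not tested. Of the further pathway genes, 1 was higher in dKO XY, the target gene Tgfbi (1.84), and 1 was lower. In control XX 2 were higher and 6 lower, led by Ltbp1 (-1.92), Tgfbi (1.73), Fbn1 (-1.59) and Ltbp4 (-1.39).

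In immune cells 0 of 8 genes tested were called in dKO XY (0.183% of 9830 genes) and 0 of 8 in control XX (2.67%). An unadjusted p under 0.05 was reached by 2 and 4, and the share of all genes that reached it was not counted. Tgfb1 was at 209 and 194 CPM in control XY, at 205 and 217 CPM in dKO XY and 175 and 191 CPM in control XX, so control XX lay just below the others. Tgfbr2 was at 40.8 and 49.1, 57.1 and 67.2, and 63.1 and 76.5 CPM, and Tgfbr1 at 72.4 and 102, 63.8 and 79.3, and 126 and 123 CPM. For both receptors control XX lay above control XY without overlap, with 28 and 37 cells in control XX. The groups drew on different immune subclusters, and the part of this in these differences was not tested. The subcluster led by C1qa was looked at after the data had been seen. In the subcluster led by C1qa, C1qb and C1qc, Tgfbr2 overlapped at 79.1 and 82.5 CPM in control XX and 78.1 and 85.7 CPM in control XY, and Tgfbr1 at 164 and 134 against 114 and 142 CPM. Another immune subcluster, which reached 10 cells in both libraries of each testis group but in neither of control XX, held 24.4 and 20.8 CPM of Tgfbr2 in control XY. Erythroid markers in immune cells ranged from 42.5 to 14860 CPM over the libraries. Of 25 pathway genes tested, 0 were called in dKO XY and 2 were lower in control XX, Ltbp4 (a mean of 1.94 against 37.5 CPM in control XY) and Fbn1 (1.38 against 21.8 CPM).

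Epithelial cells had 0 higher and 2 lower of the 9 genes in dKO XY (6.78% of 13011 genes). Tgfb2 was at 104 and 205 CPM in control XY, which held 30 and 41 such cells, and at 30.4 and 47.2 CPM in dKO XY. The change was -1.99 ± 0.36 (adjusted p = 0.00854), lost without control XY 2 or dKO XY 1 (adjusted p up to 0.102). Tgfb3 was at 47.1 and 53.7 CPM against 20.8 and 25.5 CPM, a change of -1.12 ± 0.22 (adjusted p = 0.0129), lost without any 1 of these 4 libraries (adjusted p up to 0.117). The groups did not overlap in either gene. In control XX, 0 were higher and 1 lower (4.57%), Eng, at 1.64 and 2.43 CPM against 7.71 and 11.7 CPM, a change of -2.23 ± 0.53 (adjusted p = 0.0377). Without control XY 1, control XY 2, dKO XY 2 or control XX 1 this call was lost (adjusted p up to 0.308). Interstitial markers in epithelial cells summed to 2297 and 2292 CPM in control XY, 815 and 1112 CPM in dKO XY and 701 and 1486 CPM in control XX, and their part in the Tgfb2 and Eng results was not tested. In the pathway list 1 gene was higher in dKO XY, Ctgf (2.40), and 5 were lower, led by Ltbp2 (a mean of 0.208 against 3.64 CPM), Smad6 (-1.50) and Klf10 (-1.49), and 1 was lower in control XX, Ltbp1 (-1.36).

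Leydig-like cells, the androgen producers, had 0 higher and 1 lower of the 9 genes in dKO XY (6.57% of 14423 genes). Acvrl1 was at 10.8 and 12.5 CPM in control XY against 6.51 and 8.02 CPM in dKO XY, without overlap. The change of -0.71 ± 0.14 (adjusted p = 0.0274) was lost without control XY 2 (adjusted p = 0.0895). The ligand Tgfb1 overlapped, at 11.3 and 12.3 against 11.3 and 13.5 CPM, as did Smad7, at 46.8 and 55.5 against 58.5 and 42.3 CPM. Of the further pathway genes 1 was higher, Tgfbi (1.90), and 2 were lower, Ltbp4 (-0.44) and Ltbp3 (-0.42).

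Germ cells could be compared between dKO XY and control XX, a contrast of both genotype and sex. Meiotic stage differs as well, since the paper reports meiosis in dKO XY germ cells at the poles but not in those of the central cords. The dKO XY sums pool both kinds, and the part of this in the differences below was not tested. Here 3 of the 9 genes were higher and 1 lower (51.9% of 13587 genes). Tgfb1 was at 13.0 and 12.2 CPM in dKO XY and 4.45 and 3.98 CPM in control XX, apart by 1.64 on the log2 scale (adjusted p = 6.7e-06). Smad7 was at 78.8 and 67.4 against 33.9 and 22.7 CPM (1.43, adjusted p = 2.05e-07). Tgfbr1 ran the other way, at 23.1 and 31.7 against 63.8 and 56.8 CPM (-1.08, adjusted p = 1.57e-05). Eng, at 6.60 and 5.05 against 3.41 and 2.18 CPM (1.12, adjusted p = 0.00697), lost its call without dKO XY 1 or control XX 2 (adjusted p up to 0.161). Endothelial markers in these germ cells summed to 48.3 and 48.8 CPM in dKO XY and 22.5 and 16.4 CPM in control XX, and Leydig markers to 417 and 226 against 7.55 and 7.45 CPM. Their part in these results was not tested. Among pathway genes in germ cells, 12 were higher and 5 lower, led by Ctgf (3.23), Ltbp2 (a mean of 0.323 against 1.78 CPM), Tgif1 (1.98) and Tgfbrap1 (-1.75).

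Whether supporting cells changed differently from interstitial cells of the same libraries was tested as an interaction. For dKO XY, 1 of the 9 genes had a higher and 5 a lower change in supporting cells (19.7% of 17363 genes called). Acvrl1 (-2.31 ± 0.12, adjusted p = 3.91e-06), Smad7 (-1.54 ± 0.11, adjusted p = 1.92e-05), Smad3 (0.83 ± 0.10, adjusted p = 0.000413) and Tgfb1 (-0.59 ± 0.11) kept their calls without any 1 library. Tgfb2 (-0.47 ± 0.11) and Eng (-0.86 ± 0.27) were called, but Eng lost its call without control XY 1, control XY 2 or dKO XY 2 (adjusted p up to 0.303) and Tgfb2 without control XY 1, dKO XY 1 or dKO XY 2 (adjusted p up to 0.0924). Without cells scored as doublets Tgfb2 was at 0.07 (adjusted p = 0.761) and Eng at -0.77 (adjusted p = 0.087), and Eng also lost its call with RLE size factors (adjusted p = 0.0606). For control XX, 2 had a higher and 6 a lower change (45.5% of genes), with Smad7 at -2.92 ± 0.11, Acvrl1 at -2.83 ± 0.12 and Smad3 at 1.91 ± 0.10. Both contrasts share the control XY libraries.

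For each of the 9 genes, the genes with the most similar pattern were found by Pearson's r of log2(CPM + 1) over 45 sums of a library and a cell type, among 12527 genes. These sums share libraries and cell types, so r is a description. Tgfb1 was most like Msn (r = 0.947), St8sia4 (0.938) and Fes (0.933), and Tgfb2 was most like Selm (0.963), Ddah2 (0.949) and the collagen gene Col5a2 (0.948). For Tgfb3 these were Wnt5b (0.911), Ptprd (0.902) and Tenm4 (0.902). Among the receptors, Tgfbr1 was most like Cln6 (0.902), Myo5a (0.887) and Rbpj (0.868). Tgfbr2 was most like Fam102b (0.947), Wipf1 (0.934) and Plekho1 (0.933), and Acvrl1 was most like Itpkb (0.898), Prkab1 (0.897) and Sh3bp5 (0.878). Eng went with Cd40 (0.944), Fgd5 (0.943) and Adcy4 (0.936). Smad3 had the lowest values, with Pck2 (0.822), Kdm4a (0.821) and Tns3 (0.818), and Smad7 went with the retinoic acid receptor gene Rara (0.886), Atp8b2 (0.831) and Phlda3 (0.828).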

How the data were processed

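For each of the 6 libraries the authors deposited UMI counts as Cell Ranger gave them (mm10, per the labels), after a correction for barcode swapping and with no normalization. Kept were barcodes above 2500 and below 9000 genes whose mitochondrial share was under 25% and whose Hbb share was under 20%. These were clustered in Seurat 5.3.0 (3000 variable genes, 20 components, resolution 0.21), and supporting cells again with 8 components and resolution 0.25. Left out of the variable genes were the 9 genes, the 33 pathway genes, Amh and Inhbb. Doublets were scored with Scrublet (scanpy 1.11.5) and kept in the main results; leaving out the 8% with the highest scores was an alternative. For each cell type with at least 10 cells in a library the counts were added up, and the sums were tested with edgeR 4.0.16 (TMM, filterByExpr, quasi-likelihood test, Benjamini-Hochberg over all genes tested, threshold 0.05), with DESeq2 1.42.0 and other settings as alternatives. The edgeR tests, but not the filtering, clustering or doublet scoring, were also run on simulated sums with known changes. The 9 genes and the gene lists were chosen with earlier results of these data known. Named were all 9 genes, at most 4 called pathway genes per comparison by size of fold change (none for comparisons between cell types or for interactions), and the 3 most similar genes for each; 1 of the pathway genes that this rule names is not reported here.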

Additional observations from a re-analysis of the deposited data

Results flagged for a closer look

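The change in supporting cells differed from that in interstitial cells of the same libraries for the following genes, by an interaction term in edgeR's quasi-likelihood test. Values are the log2 change in supporting cells minus that in interstitial cells. Between dKO XY and control XY the difference was -2.311 for Acvrl1, -1.539 for Smad7, -0.8556 for Eng, -0.5899 for Tgfb1, -0.4724 for Tgfb2 and 0.8287 for Smad3. The calls of Tgfb2 and Eng did not hold without cells scored as doublets (0.0670, adjusted p = 0.761, and -0.766, adjusted p = 0.087) and were each lost in 3 of 6 fits with a library left out. Between control XX and control XY it was -2.92 for Smad7, -2.83 for Acvrl1, -1.893 for Eng, -1.542 for Tgfb3, -1.048 for Tgfb2, -0.5936 for Tgfb1, 0.5297 for Tgfbr1 and 1.912 for Smad3. Between these groups interstitial cells lie in different clusters, and the part of this in the second set of differences was not tested.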

How the results depend on the processing

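For 120 called values of the 9 genes, the alternative settings gave 1558 re-estimated values, many from the same fit and so not independent. Of these, 1426 kept direction and call, 125 lost the call and 7 changed sign. Of the called values, 81 held in every setting tried for them. The sign changed without cells scored as doublets for Tgfb2 in supporting cells of control XX (0.249) and for its dKO XY difference from interstitial cells (0.0670), within interstitial cluster 2 for Tgfb2 (-0.298) and Tgfb3 (-0.302) in control XX, and in the control XY libraries alone for the type folds of Smad7 in interstitial (-0.0479) and of Tgfbr1 (0.0904) and Acvrl1 (0.749) in epithelial cells. The cause was not tested. The count of genes called in supporting dKO XY cells (5) was 3 to 5 with a library left out. In interstitial dKO XY cells the count of 2 became 1 with RLE size factors, 1 with only the 2 groups compared, 1 for cells under 10% mitochondrial UMIs, 1 with all variable genes, 0 at resolution 0.5, 1 within cluster 0, 0 within cluster 2 and 0 to 1 with a library left out. In interstitial control XX cells 5 became 2 within cluster 2. In endothelial control XX cells 2 became 4 with no filter on low counts, 1 without doublets, 1 under 10% mitochondrial UMIs and 0 to 2 with a library left out; in pericytes 2 became 1 with DESeq2, 1 at resolution 0.5 and 0 to 2 with a library left out; in immune control XX cells 0 became 1 with no filter and 1 without control XX 1 (0 to 1 with a library left out). In epithelial cells the dKO XY count of 2 was 0 to 3 with a library left out, and the control XX count of 1 became 2 with no filter, 0 without doublets, 0 under 10% mitochondrial UMIs, 0 with all variable genes and 0 to 2 with a library left out. The Leydig count of 1 was 0 to 2 with a library left out, and that of the germ cell type (8) was 4 in the control XY libraries alone.

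Same-numbered libraries did not deviate together in supporting, interstitial, endothelial and pericyte sums (r from -0.214 to 0.104 over genes). Between dKO XY and control XX r was negative in each of these types, at -0.178, -0.214, -0.214 and -0.18 in this order. A negative r means that libraries of unlike number deviated together, here weakly. With 2 libraries a group this cannot settle whether libraries were processed in pairs, which the labels do not give. With the replicate block the counts became 0 in interstitial dKO XY cells, 1 in endothelial and 1 in pericyte control XX cells, and 2 in epithelial control XX cells. With 2 libraries a group, an exact permutation test cannot go below p = 0.333, and calls rest on the spread shared across genes.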
